A study of Mus musculus with 34 samples.

Results

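The genes that decide whether an activated T cell passes from G1 into S phase were followed across 6 groups of mouse CD4 T cells. The set holds 10 genes: the D cyclin genes Ccnd2 and Ccnd3, the kinase genes Cdk4 and Cdk6, the inhibitor genes Cdkn2c and Cdkn1b, the E cyclin genes Ccne1 and Ccne2, and the transcription factor genes E2f1 and E2f2. They were picked by name from the 27179 gene identifiers of the count tables. All 10 passed the filter on low counts, which left 11357 genes for testing.

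Naive CD4 T cells from C57BL/6 mice were kept in culture for 3.5 days, activated on plates with antibodies to CD3 and CD28, sorted by flow cytometry and lysed. RNA was made into 34 libraries with a Lexogen kit that reads the 3' end of transcripts, so a gene's count does not grow with transcript length. Each library is labelled with a culture code and a number: 6 libraries of Tfh2_1e4, 5 of Tfh2_2e4, 6 of Tfh2_4e4, 6 of Tfh2_6e4, 6 of Tfh5_4e4 and 5 of TfhA_4e4. Strain, activation and culture time are given alike for all groups. The labels do not explain the codes Tfh2, Tfh5 and TfhA, the quantity behind the number, the sort gate, or whether replicates came from different animals or cultures, so p-values measure the spread between these libraries.

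D cyclins bind the kinases CDK4 and CDK6, and the complexes phosphorylate the retinoblastoma protein, which then releases E2F factors. E2F1 and E2F2 activate genes of DNA synthesis and the E cyclin genes, whose products drive the partner kinase CDK2 and complete the step into S phase. The inhibitor p18INK4c, the product of Cdkn2c, occupies CDK4 and CDK6, while p27Kip1, the product of Cdkn1b, holds back cyclin E with CDK2. In T cells, signals from the antigen receptor, CD28 and the interleukin-2 receptor raise D cyclins and lower p27Kip1.

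Total counts were 4481509 to 9934245 per library. The 7 markers of CD4 T cells summed to 1488 to 2344 CPM (counts per 1000000 of a normalized library size) over all libraries. Sums were 3.85 to 17.1 CPM for 4 CD8 T cell markers, 5.36 to 24.2 for 6 B cell markers, 0 to 2.35 for 6 myeloid markers and 1.59 to 16.5 for 4 NK cell markers, of which Ncr1 and Klra8 were at 0. In TfhA_4e4 the CD4 T cell sum was 1488 to 1613 CPM against 1966 to 2285 in Tfh2_4e4, and Cd3d, Cd3e, Trac and Cd28 were lower there, 4 of 7 markers. Among the B cell markers only Ighm passed the filter on low counts, and among the NK cell markers only Klrd1. Ighm was higher in Tfh5_4e4 than in Tfh2_4e4 (0.89, edgeR adjusted p = 0.0235). The mitochondrial rRNA genes took 12.6% to 17.3% of the counts outside the 2 most abundant identifiers in TfhA_4e4, 8.06% to 11.1% in Tfh2_4e4 and 8.37% to 11.1% in Tfh5_4e4. In these bulk samples, fewer cells of a type and less RNA per cell cannot be told apart.

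The code TfhA went with more mRNA for the D cyclins, the E cyclins and E2f2 and with less mRNA for the inhibitor gene Cdkn1b than the code Tfh2 at the same number. Of the 10 genes 5 were higher in TfhA_4e4 than in Tfh2_4e4 (Ccnd2, Ccnd3, Ccne1, Ccne2 and E2f2), 1 was lower (Cdkn1b) and 4 did not pass (Cdk4, Cdk6, Cdkn2c and E2f1). Passing means an adjusted p under 0.05 in edgeR's quasi-likelihood test over all genes tested, by which 32.8% of them were called, 15.5% higher and 17.4% lower. The median log2 fold change of the 10 genes was 0.43, against -0.0087 over all genes tested. The CPM ranges of both groups did not overlap for 4 of the 10 (Ccnd2, Ccnd3, Cdkn1b and E2f2), and for 19.4% of all genes tested.

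Set against Tfh5_4e4, TfhA_4e4 had 7 of the 10 genes higher (the same 5, Cdkn2c and E2f1), 1 lower (Cdkn1b) and 2 that did not pass (Cdk4 and Cdk6). The background was 39.5% of all genes tested, 19.1% higher and 20.4% lower. The median log2 fold change was 0.80 over the 10 genes and 0.0044 over all genes tested. Ranges did not overlap for 8 of the 10 genes and for 25.2% of all genes tested. Between Tfh5_4e4 and Tfh2_4e4, Ccnd2 was lower in Tfh5_4e4, and the other 9 did not pass, with a background of 3.11% of all genes tested, 1.41% higher and 1.7% lower. Ranges overlapped for all 10 genes and failed to overlap for 2.25% of all genes tested. At an unadjusted p under 0.05 there were 4 of the 10 in that comparison, and the median log2 fold change was -0.35, against -0.0093 over all genes tested. DESeq2 called 3 of the 10 there (Ccnd2, Ccne2 and E2f1), as did the fits with a replicate block or with a factor for replicates 1 to 3 against 4 to 6. These comparisons share groups, so their values are given side by side and not related to each other.

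Both comparisons with TfhA_4e4 ran along the higher mitochondrial rRNA share of those libraries and the lower sum of CD4 T cell markers. With the share as a covariate, 6 of the 10 genes were called against Tfh2_4e4 and 7 against Tfh5_4e4, where Cdkn2c lost its call. The share was 12.6% or more in every TfhA_4e4 library and 11.5% or less in all others, so this fit cannot separate the share from the code. Over all 11357 genes tested, that fit called 2722 in place of 3729 and 3204 in place of 4490. Klrd1, the only NK cell marker tested, was lower in TfhA_4e4 (-1.21 against Tfh2_4e4 and -1.33 against Tfh5_4e4). The NK cell marker Klrb1c, too low to be tested, went the other way, with 7 reads in TfhA_4e4 and 0 in Tfh2_4e4 and Tfh5_4e4. Against Tfh5_4e4, Ighm (-0.87) and 3 of 7 CD4 T cell markers were lower too. The part of the marker differences in these results was not tested.

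**Figure D1:**
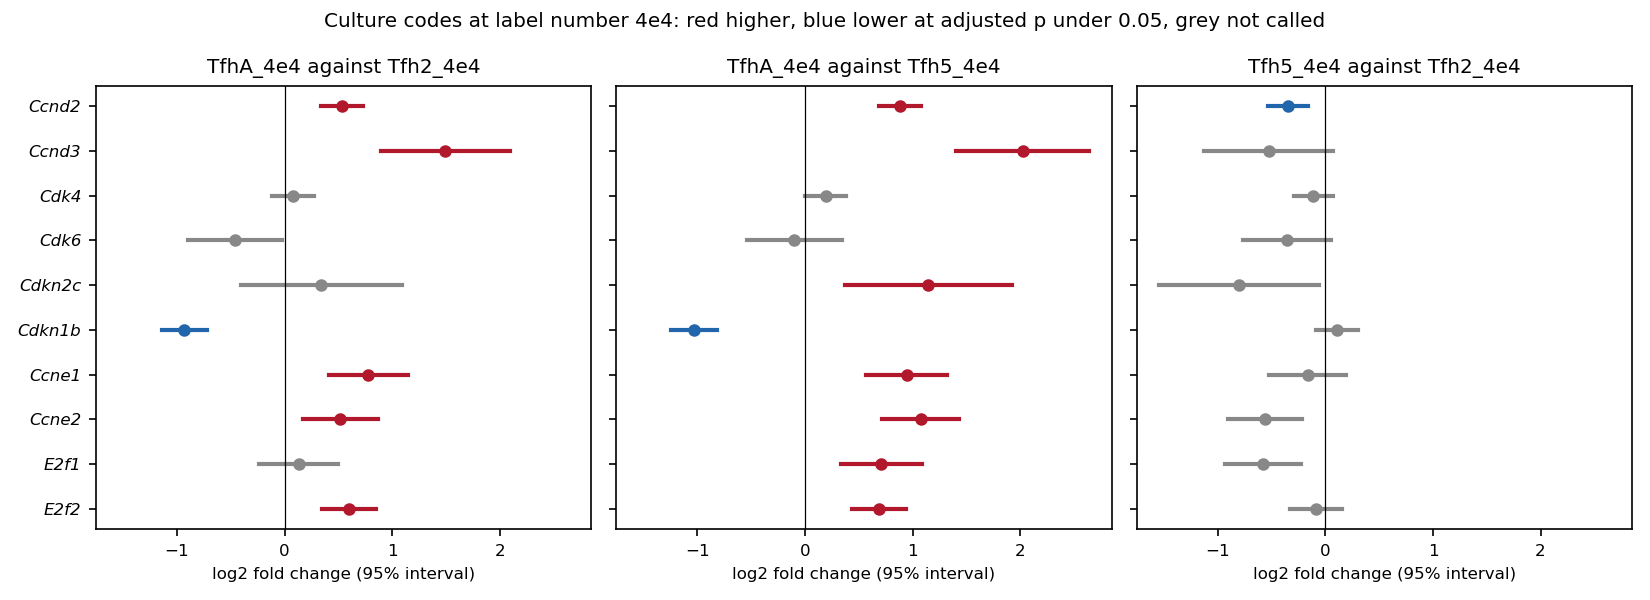
Log2 fold change (x axis) with its 95% interval for each of the 10 genes (rows) in the 3 comparisons of culture codes at the number 4e4, with red for higher, blue for lower and grey for not called at an adjusted p of 0.05. Ccnd3 lies farthest right in both comparisons with TfhA_4e4 (1.50 and 2.03), Cdkn1b lies at -0.93 and -1.03, and in the comparison of Tfh5_4e4 with Tfh2_4e4 only Ccnd2 is coloured.

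Within the code Tfh2, all 10 genes moved with the label number, and they moved in both directions. A slope was taken over the 4 Tfh2 groups as the log2 change for each doubling of the number. It was above 0 for 4 genes (Ccnd2, Ccnd3, Cdk6 and Cdkn1b) and below 0 for 6 (Cdk4, Cdkn2c, Ccne1, Ccne2, E2f1 and E2f2). By the same rule 46.9% of all genes tested were called, 24.1% with a rising and 22.8% with a falling slope. The median slope of the 10 genes was -0.22 per doubling, against -0.0028 over all genes tested. Of the 7 CD4 T cell markers 5 rose and 1 (Lck) fell with the number, Ighm fell (-0.33) and Klrd1 rose (0.32), and their part in the slopes was not tested. Without the group Tfh2_1e4, an alternative chosen after the data were seen, 7 of the 10 slopes passed, with 3159 of the 11357 genes called in place of 5331. Those that did not pass were Ccnd2 (0.085, against 0.30 with all groups), Ccnd3 (0.40, against 0.32) and Cdk6 (0.31, against 0.29).

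**Figure D2:**
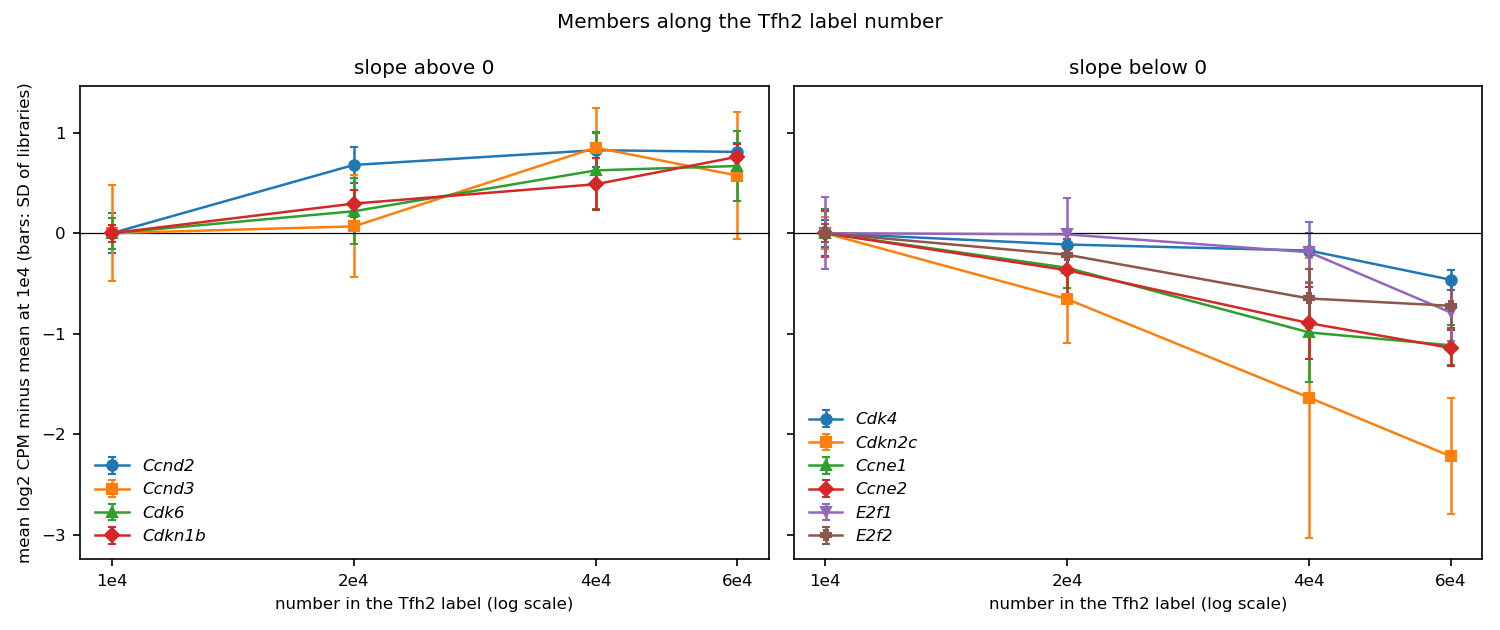
Mean log2 CPM of the 4 Tfh2 groups relative to Tfh2_1e4 (y axis) against the number in the label (x axis, log scale), with bars for the SD of the libraries, for the genes with a slope above 0 (left) and below 0 (right). Cdkn2c falls farthest, by 0.80 per doubling on the log2 scale, and Ccnd2 rises by 0.68 from 1e4 to 2e4.

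Ccnd2, on chromosome 6 from 127125162 to 127152188 (GRCm38.p6), encodes cyclin D2, the D cyclin induced by antigen receptor and cytokine signals in lymphocytes. Its level was 1462, 1396, 1386, 1441 and 1691 CPM in the 5 TfhA_4e4 libraries. In Tfh2_4e4 it had a lowest value of 884, a median of 1002 and a highest of 1161 CPM, and in Tfh5_4e4 the same values were 718, 799.5 and 890.1 CPM. Every TfhA_4e4 library thus lay above every library of the other groups, while the ranges of Tfh2_4e4 and Tfh5_4e4 overlapped by a little. Ccnd2 was 1.45-fold higher in TfhA_4e4 than in Tfh2_4e4, a log2 change of 0.53 ± 0.096 (SE, edgeR adjusted p = 1.68e-05), and 1.84-fold higher than in Tfh5_4e4 (0.88 ± 0.096, edgeR adjusted p = 2.51e-10). It was 1.27-fold lower in Tfh5_4e4 than in Tfh2_4e4, a log2 change of -0.35 ± 0.092 (edgeR adjusted p = 0.0246), below the Tfh2_4e4 mean in 6 of 6 libraries. That last call was lost without Tfh5_4e4 replicate 1, 2 or 5 (edgeR adjusted p = 0.0595, 0.0553 and 0.0580) and without Tfh2_4e4 replicate 3 and Tfh2_2e4 replicate 6 together (adjusted p = 0.0788), libraries singled out by earlier results of these data.

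Along the number, Ccnd2 had a lowest value of 505, a median of 557 and a highest of 732 CPM in Tfh2_1e4. The 5 Tfh2_2e4 libraries read 786, 994, 903, 1072 and 849 CPM, all above the Tfh2_1e4 range. In Tfh2_6e4 the values were 906, 1015 and 1072 CPM, within the range of Tfh2_4e4. The slope was 0.30 ± 0.034 per doubling (SE, edgeR adjusted p = 2.55e-10). From 1e4 to 2e4 the log2 change was 0.68 ± 0.096 (edgeR adjusted p = 1.86e-06), from 2e4 to 4e4 it was 0.15 (adjusted p = 0.370) and from 4e4 to 6e4 it was -0.02 (adjusted p = 0.959). The difference between these steps was not tested. Without Tfh2_1e4 the slope of Ccnd2 was 0.085 (edgeR adjusted p = 0.321).

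Ccnd3, on chromosome 17 from 47505051 to 47599689, encodes cyclin D3, which supports the expansion of lymphocyte precursors. It was counted far less often than Ccnd2, with 12 to 108 reads per library. The TfhA_4e4 libraries held 16.7, 18.9, 14.3, 12.9 and 8.70 CPM. Values in Tfh2_4e4 had a lowest of 3.39, a median of 4.70 and a highest of 7.27 CPM, and in Tfh5_4e4 2.12, 3.12 and 5.49 CPM. The lowest TfhA_4e4 library lay above the highest library of both. Ccnd3 was 2.82-fold higher in TfhA_4e4 than in Tfh2_4e4 (log2 change 1.50 ± 0.30, edgeR adjusted p = 8.42e-05) and 4.07-fold higher than in Tfh5_4e4 (2.03 ± 0.31, edgeR adjusted p = 4.99e-07). Between Tfh5_4e4 and Tfh2_4e4 the change was -0.53 ± 0.30 (edgeR adjusted p = 0.426).

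In the Tfh2 groups of lower number Ccnd3 read 1.53, 2.72 and 4.12 CPM (lowest, median and highest) in Tfh2_1e4, and 3.99, 1.54, 2.81, 2.65 and 3.62 CPM in the 5 Tfh2_2e4 libraries. Tfh2_6e4 spanned 1.97 to 7.60 CPM with a median of 4.17, so neighbouring groups overlapped. The slope was 0.32 ± 0.11 per doubling (SE, edgeR adjusted p = 0.0139). It did not pass without Tfh2_1e4 replicate 4 (edgeR adjusted p = 0.0506), without Tfh2_6e4 replicate 6 (adjusted p = 0.0766) or without the group Tfh2_1e4 (0.40, adjusted p = 0.144). The last 361 exon bases of Ccnd3 lie over the gene Bysl on the other strand (chr17:47599331-47599691), and the strand setting of the counting is not given in the sources used here. Bysl was not called in any comparison of codes (0.13 for TfhA_4e4 against Tfh2_4e4, edgeR adjusted p = 0.634), and its slope was -0.43 (adjusted p = 1.2e-07). Reads of the shared bases cannot be assigned without the strand setting, and the part of the overlap in the Ccnd3 values was not tested.

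Cdk4, on chromosome 10 from 127063535 to 127067288, encodes one of the catalytic partners of the D cyclins. Its ranges overlapped between all codes, with 83.6, 83.3, 90.5, 84.3 and 79.7 CPM in the TfhA_4e4 libraries, a lowest of 70.8, a median of 75.9 and a highest of 98.7 CPM in Tfh2_4e4, and 68.1, 73.1 and 80.9 CPM in Tfh5_4e4. The log2 change of TfhA_4e4 was 0.08 ± 0.095 against Tfh2_4e4 (SE, 95% interval -0.11 to 0.27, edgeR adjusted p = 0.575) and 0.19 ± 0.095 against Tfh5_4e4 (-0.0011 to 0.38, adjusted p = 0.108). DESeq2 called the second of these (0.23, adjusted p = 0.0352). Tfh5_4e4 against Tfh2_4e4 gave -0.11 (edgeR adjusted p = 0.632).

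Along the number the slope of Cdk4 was -0.16 ± 0.032 per doubling (SE, edgeR adjusted p = 8.59e-05). Tfh2_1e4 held a lowest of 82.0, a median of 87.4 and a highest of 107 CPM, and the Tfh2_2e4 libraries 85.2, 83.2, 75.1, 93.5 and 77.5 CPM. In Tfh2_6e4 the values were 59.8, 64.3 and 70.3 CPM, all below the lowest Tfh2_4e4 library. The 3' end of Cdk4 shares 641 exon bases with Tspan31 on the other strand, a gene that was called in no comparison of codes and had a slope of -0.22 (edgeR adjusted p = 0.00688). Reads of both genes cannot be told apart without the strand setting.

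Cdk6, on chromosome 5 from 3341004 to 3531008, encodes the other D cyclin kinase. It read 7.36, 10.8, 10.8, 5.63 and 9.64 CPM in TfhA_4e4. Tfh2_4e4 spanned 7.81 to 16.1 CPM with a median of 12.4, and Tfh5_4e4 7.44 to 14.0 CPM with a median of 8.69. All 3 groups overlapped, and no comparison of codes passed: -0.46 ± 0.22 for TfhA_4e4 against Tfh2_4e4 (SE, edgeR adjusted p = 0.102), -0.10 against Tfh5_4e4 (adjusted p = 0.751) and -0.36 for Tfh5_4e4 against Tfh2_4e4 (adjusted p = 0.426). Without Tfh2_4e4 replicate 2 the first was -0.57 and passed (edgeR adjusted p = 0.0431).

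In the Tfh2 series Cdk6 rose where Cdk4 fell, with a slope of 0.29 ± 0.073 per doubling (SE, edgeR adjusted p = 8.77e-04). Its lowest, median and highest values were 6.33, 7.64 and 8.62 CPM in Tfh2_1e4 and 9.63, 10.9 and 17.9 CPM in Tfh2_6e4, 2 ranges that did not meet. The Tfh2_2e4 libraries, at 9.91, 7.82, 9.01, 11.9 and 6.49 CPM, overlapped with both. Without the group Tfh2_1e4 the slope of Cdk6 was 0.31 (edgeR adjusted p = 0.0826).

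Cdkn2c, on chromosome 4 from 109660876 to 109666756, encodes p18INK4c, the inhibitor of CDK4 and CDK6. It had the steepest slope of the 10 genes, -0.80 ± 0.13 per doubling (SE, edgeR adjusted p = 9.63e-07), on 3 to 86 reads per library. Tfh2_1e4 held a lowest of 6.68, a median of 7.99 and a highest of 9.15 CPM, and Tfh2_6e4 0.736, 1.96 and 2.32 CPM. The highest Tfh2_6e4 library was thus below the lowest Tfh2_1e4 library. In between, the Tfh2_2e4 libraries read 4.40, 7.18, 3.38, 4.35 and 6.40 CPM, and Tfh2_4e4 spread from 0.396 to 6.57 CPM with a median of 2.71. With all libraries no single step passed: -0.61 from 1e4 to 2e4 (edgeR adjusted p = 0.417), -0.62 from 2e4 to 4e4 (adjusted p = 0.297) and -0.97 from 4e4 to 6e4 (adjusted p = 0.219). Without Tfh2_4e4 replicate 4, which held 3 reads of Cdkn2c, the last step was -1.19 and passed (edgeR adjusted p = 0.0417), and limma-voom called the middle step (-1.12, adjusted p = 0.0339).

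Among the codes Cdkn2c read 4.58, 4.56, 2.98, 4.19 and 5.17 CPM in TfhA_4e4, and a lowest of 1.42, a median of 2.01 and a highest of 2.37 CPM in Tfh5_4e4. These ranges did not overlap, and the wide range of Tfh2_4e4 held both. Cdkn2c was 2.21-fold higher in TfhA_4e4 than in Tfh5_4e4 (log2 change 1.15 ± 0.38, edgeR adjusted p = 0.0150). With the mitochondrial rRNA share as a covariate it was 0.92 and did not pass (edgeR adjusted p = 0.259). The changes against Tfh2_4e4 were 0.34 for TfhA_4e4 (edgeR adjusted p = 0.523) and -0.80 for Tfh5_4e4 (adjusted p = 0.287). Leaving out 1 library moved them to between 0.10 and 0.66 and to between -1.03 and -0.50, with the extremes without Tfh2_4e4 replicate 4 and without Tfh2_4e4 replicate 3, and neither passed. Removal of Tfh2_4e4 replicate 1 or 2 also moved the first by over 1.5 times, to 0.62 and 0.17. By limma-voom the values were 0.82 and -0.29, and with the mitochondrial rRNA share as a covariate the first was 0.13, none of them called.

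Cdkn1b, on chromosome 6 from 134920401 to 134925525, encodes p27Kip1, the inhibitor of cyclin E with CDK2 that marks resting T cells. It was the gene of the set that was lower in TfhA_4e4. The TfhA_4e4 libraries held 45.8, 52.2, 54.2, 60.5 and 57.6 CPM. In Tfh2_4e4 the lowest, median and highest values were 74.9, 108 and 118 CPM, and in Tfh5_4e4 104, 110.0 and 121 CPM. No TfhA_4e4 library reached the lowest of any other group. Cdkn1b was 1.91-fold lower than in Tfh2_4e4 (log2 change -0.93 ± 0.11, SE, edgeR adjusted p = 9.74e-10) and 2.05-fold lower than in Tfh5_4e4 (-1.03 ± 0.11, edgeR adjusted p = 4.27e-11). Tfh5_4e4 and Tfh2_4e4 gave 0.10 ± 0.097 (edgeR adjusted p = 0.703).

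With the number, Cdkn1b rose while Cdkn2c, the other inhibitor gene of the set, fell. Tfh2_1e4 held a lowest of 67.0, a median of 72.9 and a highest of 78.4 CPM. The Tfh2_2e4 libraries read 96.6, 83.5, 86.5, 99.7 and 81.1 CPM, all above that range, and Tfh2_6e4 read 109.8, 125 and 137 CPM. The lowest Tfh2_4e4 value, 74.9 CPM, was that of replicate 3. The slope was 0.28 ± 0.035 per doubling (SE, edgeR adjusted p = 6.53e-09), spread over steps of 0.30, 0.21 and 0.26 that did not pass singly (adjusted p = 0.0876, 0.197 and 0.196). Without Tfh2_4e4 replicate 3 the middle step was 0.28 and passed (edgeR adjusted p = 0.0451).

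The promoters of these 2 inhibitor genes are shown because the genes moved in opposite directions with the number. Each line is the 250 bases before the transcript start as given in RefSeq for GRCm38.p6, read 5′ to 3′ on the gene's strand. Capitals mark 6-letter cores of E2F-type sites (TGGCGC, or else TCGCGC, or else TCCCGC, on either strand, motifs shortened from 8 letters after the sequences were seen). The Cdkn2c window is chr4:109666757-109667006 on the minus strand and the Cdkn1b window chr6:134920151-134920400 on the plus strand.
Cdkn2c: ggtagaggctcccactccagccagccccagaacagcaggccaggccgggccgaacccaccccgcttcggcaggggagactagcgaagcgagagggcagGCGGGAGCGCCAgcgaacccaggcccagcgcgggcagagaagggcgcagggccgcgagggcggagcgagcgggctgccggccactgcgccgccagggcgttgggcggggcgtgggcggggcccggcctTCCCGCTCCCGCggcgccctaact
Cdkn1b: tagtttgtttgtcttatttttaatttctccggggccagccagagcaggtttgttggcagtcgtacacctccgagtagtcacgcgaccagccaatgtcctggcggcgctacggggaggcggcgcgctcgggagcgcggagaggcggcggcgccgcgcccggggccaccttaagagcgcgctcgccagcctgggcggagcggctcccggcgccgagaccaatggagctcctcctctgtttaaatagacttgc
The Cdkn2c window held 4 cores, at positions -152, -146, -24 and -18 from the start, and the Cdkn1b window held 0. A second Cdkn2c window, for a transcript that starts 1384 bases inside the gene, also held 0. The windows of Cdk4 and E2f2, whose slopes were below 0, held 0 before the start. So did the only window of E2f1, whose slope was also below 0. That window is for a transcript that starts 466 bases inside the gene, so the start of E2f1 itself was not examined. Among genes with a slope above 0, the Ccnd3 windows held 0. The Cdk6 window, for a transcript that starts 2889 bases inside the gene, held 1. Of all 32851 promoter windows of the table, 26.9% held at least 1 core in the 250 bases before the start. A match describes the letters only.

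Ccne1, on chromosome 7 from 38097984 to 38107490, encodes cyclin E1, an activator of CDK2 and a target of E2F factors. It read 20.1, 23.4, 24.7, 26.1 and 24.9 CPM in TfhA_4e4. Tfh2_4e4 had a lowest of 8.38, a median of 12.8 and a highest of 22.0 CPM, and Tfh5_4e4 8.14, 11.8 and 16.8 CPM. One end of the Tfh2_4e4 range reached into that of TfhA_4e4, and Tfh5_4e4 lay wholly below. Ccne1 was 1.72-fold higher in TfhA_4e4 than in Tfh2_4e4 (log2 change 0.78 ± 0.18, SE, edgeR adjusted p = 7.52e-04) and 1.92-fold higher than in Tfh5_4e4 (0.94 ± 0.18, edgeR adjusted p = 4.91e-05). The change of Tfh5_4e4 against Tfh2_4e4 was -0.16 (edgeR adjusted p = 0.747).

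Along the number the slope of Ccne1 was -0.45 ± 0.062 per doubling (SE, edgeR adjusted p = 4.99e-08). Its lowest, median and highest values were 20.9, 26.7 and 34.2 CPM in Tfh2_1e4, and the Tfh2_2e4 libraries read 20.5, 17.0, 20.7, 20.4 and 25.4 CPM. Tfh2_6e4 lay lower, at 9.08, 12.7 and 13.0 CPM. From 2e4 to 4e4 the change was -0.58 (edgeR adjusted p = 0.0254). That step did not pass when these groups alone were fitted (edgeR adjusted p = 0.0778), nor without Tfh2_2e4 replicate 6, Tfh2_4e4 replicate 5 or Tfh2_4e4 replicate 6 (adjusted p = 0.0792, 0.0852 and 0.0733), nor without Tfh2_4e4 replicate 3 and Tfh2_2e4 replicate 6 together (0.0543).

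The promoter of Ccne1 is shown as that of an E cyclin gene, a class of E2F targets, and its window is chr7:38107491-38107740 on the minus strand, with capitals as above.
Ccne1: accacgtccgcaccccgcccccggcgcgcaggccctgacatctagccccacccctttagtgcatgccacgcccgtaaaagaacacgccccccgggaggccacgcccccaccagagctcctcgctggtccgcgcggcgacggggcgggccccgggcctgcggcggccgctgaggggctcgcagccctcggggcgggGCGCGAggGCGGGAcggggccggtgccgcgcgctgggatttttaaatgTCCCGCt
It held 3 cores, at positions -55, -47 and -7. Among the 11 windows examined, only those of Ccne1 and Cdk6 and the one at the start of Cdkn2c held a core before the start. The background was 26.9% of all windows. The full 8-letter motifs TTTGGCGC, TTTCGCGC and TTTCCCGC were found before the start in 0 of 11 windows of the 8 genes with an entry, and in 1.53% of all windows. Of the 11, 6 lie at the start of the gene and 5 at transcripts that start 466 to 88416 bases inside it, which is the case for the sole windows of E2f1 and Cdk6. Ccnd2 and Ccne2 are named here without a window.

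Ccne2, on chromosome 4 from 11190433 to 11204779, encodes cyclin E2, a close relative of cyclin E1. The TfhA_4e4 libraries held 28.4, 25.1, 28.2, 23.4 and 17.2 CPM. Tfh2_4e4 spanned 13.1 to 24.6 CPM with a median of 14.8, and Tfh5_4e4 8.14 to 14.2 CPM with a median of 12.6. TfhA_4e4 overlapped with Tfh2_4e4 and lay wholly above Tfh5_4e4. Ccne2 was 1.43-fold higher in TfhA_4e4 than in Tfh2_4e4 (log2 change 0.52 ± 0.17, SE, edgeR adjusted p = 0.0180), a call that was lost without TfhA_4e4 replicate 1 (adjusted p = 0.0618) or replicate 3 (adjusted p = 0.0573). It was 2.11-fold higher than in Tfh5_4e4 (1.08 ± 0.18, edgeR adjusted p = 2.69e-06). For Tfh5_4e4 against Tfh2_4e4 the change was -0.56 ± 0.17 (edgeR adjusted p = 0.0594), below the Tfh2_4e4 mean in 6 of 6 libraries, and DESeq2 called it (adjusted p = 0.0341).

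Ccne2 followed the number downwards, with a slope of -0.45 ± 0.059 per doubling (SE, edgeR adjusted p = 1.54e-08). Tfh2_1e4 held a lowest of 25.7, a median of 30.3 and a highest of 38.9 CPM, the Tfh2_2e4 libraries 23.5, 24.0, 22.8, 18.4 and 33.6 CPM, and Tfh2_6e4 11.8, 13.9 and 16.2 CPM. The end groups did not overlap. From 2e4 to 4e4 the change was -0.52 (edgeR adjusted p = 0.0345), and this call was lost without any 1 of 6 libraries (Tfh2_2e4 replicate 1 or 6, Tfh2_4e4 replicate 1, 2, 4 or 6) with adjusted p up to 0.153. The gene shares 609 exon bases with Ints8 on the other strand, which was called in none of these comparisons and had a slope of -0.09 (edgeR adjusted p = 0.577).

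E2f1, on chromosome 2 from 154559400 to 154569892, encodes an activating E2F factor that is itself a target of E2F. It read 22.9, 17.4, 18.9, 20.1 and 22.3 CPM in TfhA_4e4, with a lowest of 13.6, a median of 18.7 and a highest of 25.2 CPM in Tfh2_4e4 and 10.3, 11.5 and 15.8 CPM in Tfh5_4e4. TfhA_4e4 fell inside the Tfh2_4e4 range and above that of Tfh5_4e4. The change against Tfh2_4e4 was 0.13 ± 0.18 (SE, 95% interval -0.24 to 0.50, edgeR adjusted p = 0.628). E2f1 was 1.64-fold higher in TfhA_4e4 than in Tfh5_4e4 (0.71 ± 0.19, edgeR adjusted p = 0.00178). Tfh5_4e4 against Tfh2_4e4 gave -0.58 ± 0.18 (edgeR adjusted p = 0.0581), below the Tfh2_4e4 mean in 6 of 6 libraries, and DESeq2 called it (adjusted p = 0.0340).

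In the Tfh2 groups the slope of E2f1 was -0.28 ± 0.062 per doubling (SE, edgeR adjusted p = 2.56e-04). The lowest, median and highest values were 13.6, 20.8 and 29.1 CPM in Tfh2_1e4 and 9.72, 12.1 and 16.7 CPM in Tfh2_6e4. The Tfh2_2e4 libraries read 23.7, 30.1, 17.6, 18.2 and 16.5 CPM. Neighbouring groups overlapped throughout, and the step from 4e4 to 6e4, at -0.60, was the largest of its 3 (edgeR adjusted p = 0.0756). Leaving out a library made that step pass, with Tfh2_4e4 replicate 4 removed (-0.66, adjusted p = 0.0356) or Tfh2_6e4 replicate 1 removed (-0.72, adjusted p = 0.0267).

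E2f2, on chromosome 4 from 136172274 to 136196057, encodes the E2F factor most tied to lymphocyte proliferation control. The TfhA_4e4 libraries held 86.5, 68.4, 104, 91.7 and 71.5 CPM. Tfh2_4e4 had a lowest of 38.8, a median of 56.0 and a highest of 68.1 CPM, just under the lowest TfhA_4e4 library, and Tfh5_4e4 46.2, 50.2 and 64.7 CPM. E2f2 was 1.51-fold higher in TfhA_4e4 than in Tfh2_4e4 (log2 change 0.60 ± 0.12, SE, edgeR adjusted p = 1.59e-04) and 1.61-fold higher than in Tfh5_4e4 (0.69 ± 0.12, edgeR adjusted p = 1.57e-05). For Tfh5_4e4 against Tfh2_4e4 the change was -0.09 ± 0.12 (edgeR adjusted p = 0.811).

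The slope of E2f2 was -0.29 ± 0.042 per doubling (SE, edgeR adjusted p = 1.52e-07). Tfh2_1e4 held a lowest of 81.4, a median of 85.0 and a highest of 97.0 CPM, the Tfh2_2e4 libraries 81.7, 76.9, 61.6, 75.1 and 78.3 CPM, and Tfh2_6e4 42.8, 51.4 and 65.3 CPM. From 2e4 to 4e4 the change was -0.42 (edgeR adjusted p = 0.0173), below the Tfh2_2e4 mean in 6 of 6 libraries, a call lost without Tfh2_2e4 replicate 1 (adjusted p = 0.0591) or with these groups fitted alone (0.0552). Among the windows examined, the one at the start of E2f2 held a full-length E2F-type motif, TTTGGCGC, which lay 40 bases after the transcript start. The site is shown with its flanks (chr4:136172302-136172323, plus strand, motif in capitals).
E2f2: gcggcatatagTTTGGCGCtaa
Of all windows 1.84% held any of the 3 motifs over their 300 bases.

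**Figure D3:**
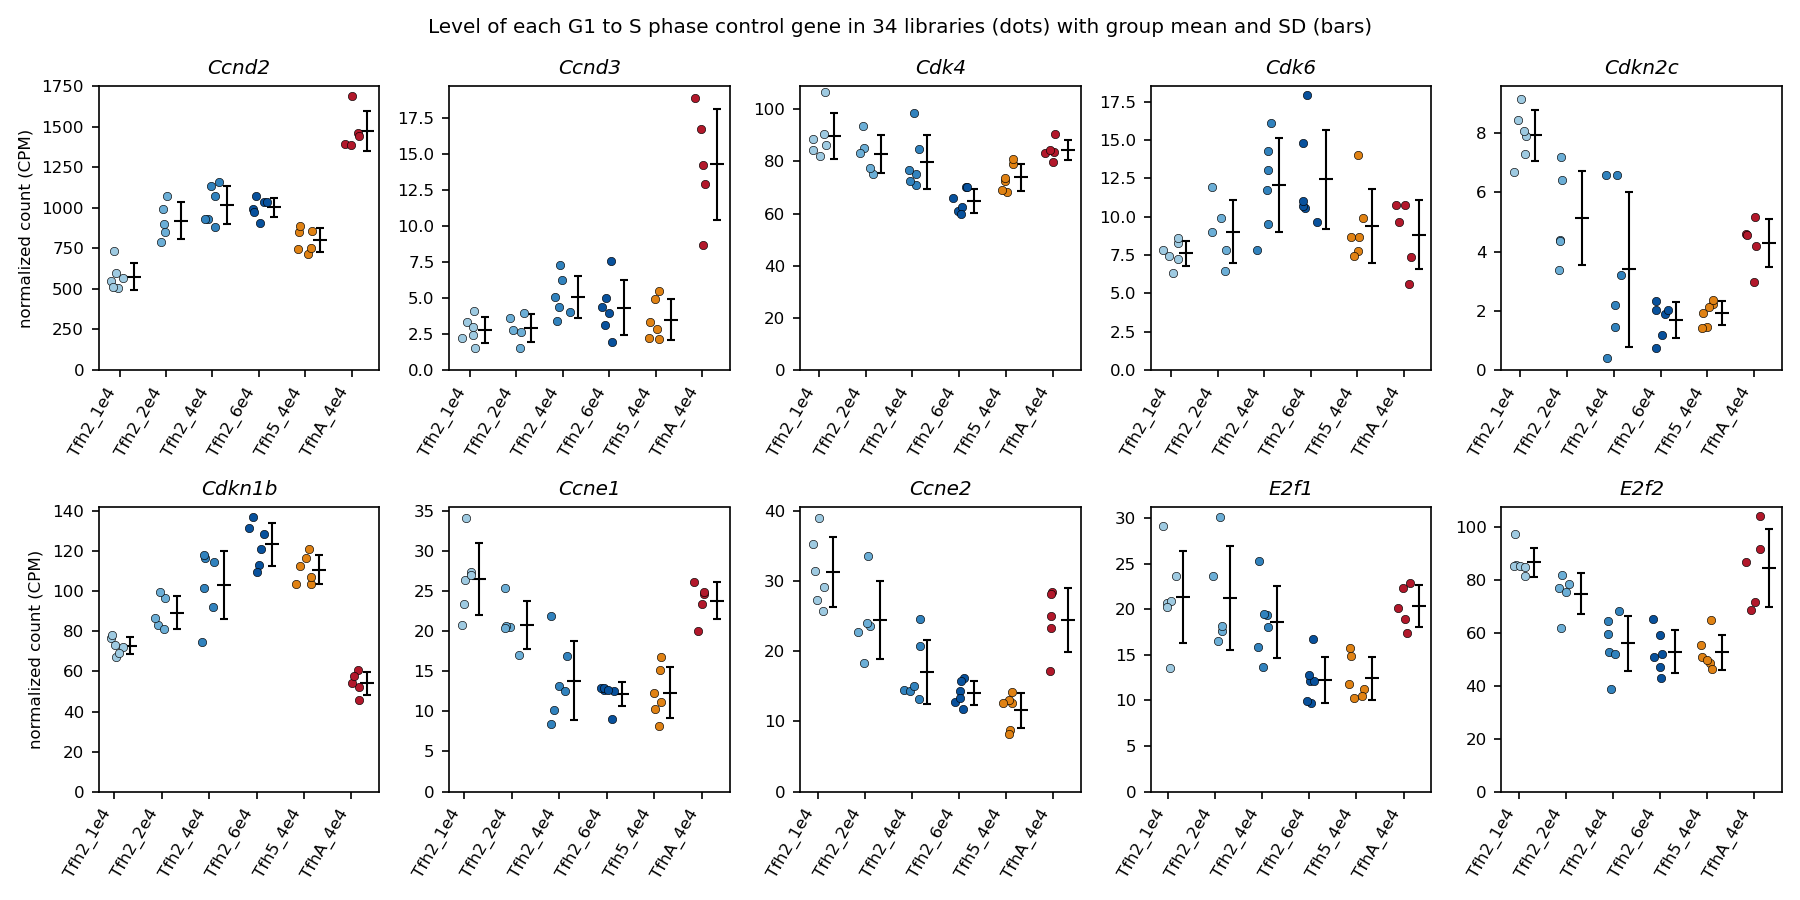
Level in CPM (y axis, from 0) of each of the 10 genes in the 34 libraries (dots, coloured by group), with the group mean and SD as bars. TfhA_4e4 stands highest for Ccnd2 and Ccnd3 and lowest for Cdkn1b, and for Ccne1, Ccne2, E2f1 and E2f2 its mean lies next to that of Tfh2_1e4 or Tfh2_2e4.

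Ordered by mean level over the 6 groups, Ccnd2 ran from 1475 ± 125 CPM (SD, n = 5) in TfhA_4e4 through 1019, 1003, 921 and 801 CPM to 576 ± 83.5 CPM (n = 6) in Tfh2_1e4. Only the first of its neighbouring ranges, TfhA_4e4 and Tfh2_4e4, did not meet. Cdkn1b ran from 124 ± 10.8 CPM (n = 6) in Tfh2_6e4 down to 72.8 ± 4.30 CPM (n = 6) in Tfh2_1e4 and 54.1 ± 5.62 CPM (n = 5) in TfhA_4e4. TfhA_4e4 overlapped with no other group, while the range of Tfh2_1e4 met that of Tfh2_4e4 alone. Tfh2_1e4 was the lowest Tfh2 group for both genes, and TfhA_4e4 stood at opposite ends of their orders. For Cdk4, Cdk6, Cdkn2c, Ccne1, Ccne2, E2f1 and E2f2 all neighbouring groups in the order overlapped. Ccne1, Ccne2, E2f1 and E2f2 were highest on average in Tfh2_1e4 and lowest in Tfh2_6e4 (Ccne1 and E2f1) or Tfh5_4e4 (Ccne2 and E2f2).

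Neighbouring numbers were also compared step by step, without a test of the difference between steps. From 1e4 to 2e4 Ccnd2 rose and the other 9 genes did not pass, with 5.26% of all genes tested called, 4.06% higher and 1.2% lower. Ranges did not overlap for Ccnd2 and Cdkn1b in that step, and for 3.99% of all genes tested. From 2e4 to 4e4 Ccne1, Ccne2 and E2f2 fell and the other 7 did not pass, with a background of 13%, 7.59% higher and 5.4% lower. Ranges overlapped for all 10 genes in that step and failed to overlap for 7.04% of all genes tested. Ighm fell in that step as well (-0.77, edgeR adjusted p = 0.0270), and its part was not tested. When only these groups were fitted, the count was 0. From 4e4 to 6e4 edgeR called 0 of the 10, with 1.48% of all genes called (0.616% higher and 0.863% lower), and 4 of the 10 had an unadjusted p under 0.05. DESeq2 and limma-voom also called 0. Ranges did not overlap for Cdk4, 1 of the 10, and for 1.07% of all genes tested.

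The counts of partner genes could be set beside each other, since 3' reads do not scale with transcript length, although capture at the 3' end can still differ between genes. Of the last 500 bases, 361 of Ccnd3, 500 of Cdk4 and 304 of Ccne2 are exon bases shared with a gene on the other strand. How reads there were assigned is unknown without the strand setting, so shares that involve these genes may depend on the counting, which was not tested. Ccnd2 made up 99.0% ± 0.307 (SD, n = 5) of the reads of both D cyclins in TfhA_4e4 and 99.5% to 99.7% on average in the other groups. The share of Cdk4 in the reads of Cdk4 and Cdk6 was 92.1% ± 0.801 (SD, n = 6) in Tfh2_1e4, 90.2% ± 1.52 (n = 5) in Tfh2_2e4, 86.8% ± 3.42 (n = 6) in Tfh2_4e4 and 83.9% ± 4.25 (n = 6) in Tfh2_6e4. The ranges of Tfh2_1e4 (91.2% to 93.3%) and Tfh2_6e4 (76.9% to 87.3%) did not meet. Ccne1 held 44.5% to 51.4% of the E cyclin reads as group means and E2f1 18.7% to 25.0% of the reads of E2f1 and E2f2.

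The other genes of the pathway were described with 3 lists, by counts and medians only. Of 33 further genes of the G1 to S machinery 30 were tested. In TfhA_4e4 against Tfh2_4e4, 6 were higher and 2 lower, with a median of 0.16. Of all genes tested 15.5% were higher and 17.4% lower there, with a median of -0.0087. Higher were Cks1b (0.90), which serves the kinases and the degradation of p27Kip1, cyclin A2 gene Ccna2 (0.66) and Cdk2 (0.56), the partner of the E cyclins. The other 3 higher genes, named after their values were seen, were the inhibitor gene Cdkn1a (0.41), the phosphatase gene Cdc25a (0.26) and Fbxo5 (0.51), whose product restrains the anaphase-promoting complex. Lower were the retinoblastoma gene Rb1 (-0.60) and Tfdp2 (-0.33), a binding partner of E2F factors that was singled out after its value was seen. Against Tfh5_4e4, 6 were higher, among them Cdkn1a (0.98), which encodes the inhibitor p21, and the repressor gene E2f7 (0.72), and 5 lower: Rb1 (-0.79), Tfdp2 (-0.62), Ccnh (-0.51), Mnat1 (-0.44) and Fbxw7 (-0.35), the last 4 named after their values were seen. In Tfh5_4e4 against Tfh2_4e4 Cdkn1a was lower (-0.57, edgeR adjusted p = 0.00287) and the other 29 did not pass, with a background of 3.11%.

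With the number 17 of these 30 fell and 6 rose, beside 22.8% and 24.1% of all genes tested. Cdkn1a rose in each step, from 84.8 ± 9.25 CPM (SD, n = 6) in Tfh2_1e4 to 169 ± 49.7 (n = 5), 330 ± 50.9 (n = 6) and 462 ± 34.7 CPM (n = 6), a slope of 0.95 (edgeR adjusted p = 1.89e-21). It stood at 439 ± 41.9 CPM (n = 5) in TfhA_4e4 and 222 ± 24.0 CPM (n = 6) in Tfh5_4e4. The inhibitor gene Cdkn2d, named after its values were seen, is of the same family as Cdkn2c and was counted far more often. Its means went up with the number, the other way from Cdkn2c, at 127 (n = 6), 148 (n = 5), 171 (n = 6) and 214 CPM (n = 6). Those of the inhibitor gene Cdkn1c, named likewise, went down, at 2.15, 1.53, 1.37 and 0.495 CPM. The slopes were -0.98 for E2f7 and -0.81 for E2f8, both repressors of E2F targets, and -0.67 for Cks1b. In single steps 2 of 30 rose and 2 fell from 1e4 to 2e4 (higher Cdkn1a and Rbl2, lower E2f7 and Ccna2). Then 3 rose and 7 fell from 2e4 to 4e4, and 1 rose (Cdkn1a, 0.48) from 4e4 to 6e4. Calls over all genes tested were 5.26%, 13% and 1.48% in these steps.

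Targets of E2F in S phase, 30 of 31 tested, are the genes on which activating E2F factors act. In TfhA_4e4 against Tfh2_4e4 24 were higher and 0 lower, with a median of 0.99. The background was 15.5% higher and 17.4% lower, with a median of -0.0087 over all genes tested. Among the leading changes were those in the thymidine kinase gene Tk1 (1.62), the thymidylate synthase gene Tyms (1.42) and the origin factor gene Orc1 (1.41). Against Tfh5_4e4 the background was 19.1% higher and 20.4% lower (median 0.0044). Of the targets 26 were higher and 1 lower there (median 1.42), with Tk1 at 2.54 and Mybl2 at 2.36. The 1 lower gene was Mcm6 (-0.54), named after its value was seen. In Tfh5_4e4 against Tfh2_4e4 7 were lower and 1 higher (median -0.45), beside 1.7% and 1.41% of all genes tested. Tk1 (-0.92), Cdc6 (-0.86), Pold1 (-0.66) and Cdc45 (-0.62) led the fall. The 1 higher gene was Mcm6 (0.40), likewise named after its value was seen.

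Along the number 28 of the 30 targets fell and 0 rose, with a median slope of -0.57. The background was 22.8% falling and 24.1% rising, with a median slope of -0.0028. Tyms fell by 1.07 per doubling, Rrm2 by 1.05, Tk1 by 0.88 and Cdc6 by 0.84 on the log2 scale. By steps 4, 23 and 8 of the 30 fell, and 0 rose in each, while 1.2%, 5.4% and 0.863% of all genes tested fell. In the last step, from 4e4 to 6e4, Tk1 (-1.06), Tyms (-0.97), Mcm5 (-0.77) and Cdc45 (-0.68) were among the targets that fell.

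**Figure D4:**
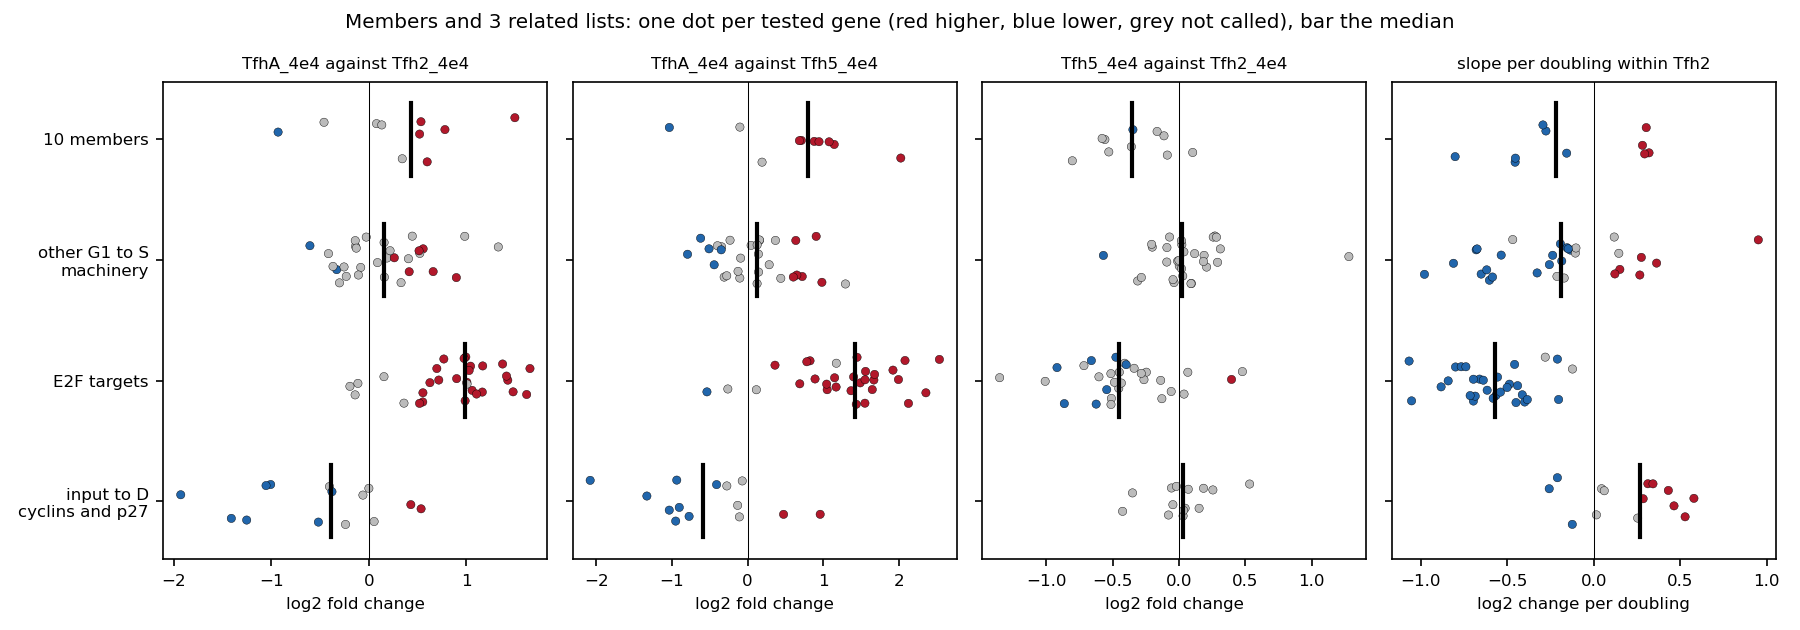
Log2 fold change or slope (x axis) of each tested gene (dots, red higher, blue lower, grey not called) in the 10-gene set and in 3 lists of related genes (rows), with the median as a bar, for 4 comparisons (panels). The E2F targets have medians of 0.99 and 1.42 in the comparisons with TfhA_4e4 and -0.57 along the number, while the list of input genes has medians of -0.39, -0.59 and 0.27 in the same panels.

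The genes that act upstream of D cyclins and p27Kip1, 14 of 15 tested, include factors of interleukin-2, PI3K and MYC signalling. In TfhA_4e4 against Tfh2_4e4 7 were lower and 2 higher, with a median of -0.39. The background was 17.4% lower and 15.5% higher, with a median of -0.0087 over all genes tested. Foxo1, a factor that activates Cdkn1b, was lower by a log2 change of -1.93, at 88.8 ± 7.90 CPM (SD, n = 5) against 338 ± 25.8 CPM (n = 6). Stat5b (-1.41) and Jak3 (-1.05), parts of interleukin-2 signalling, and Myc (-1.25), an activator of Ccnd2 and Cdk4, were lower too. The 2 higher genes were Pim2 (0.53) and Il2rg (0.43), named after their values were seen. Against Tfh5_4e4 8 were lower and 2 higher (median -0.59), beside 20.4% and 19.1% of all genes tested. Foxo1 was at -2.08, Stat5b at -1.33, Jak3 at -1.04 and Pim2 at 0.96. In Tfh5_4e4 against Tfh2_4e4 edgeR called 0 of the 14 and 3.11% of all genes tested, and the median of the 14 was 0.03.

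With the number 7 of the 14 rose and 3 fell (median 0.27), beside 24.1% and 22.8% of all genes tested. Stat5a rose by 0.58 per doubling, Pim2 by 0.53, Stat5b by 0.46 and Pim1 by 0.43, and the 3 that fell were Akt1 (-0.26), Rheb (-0.21) and Il2rg (-0.12), named after their values were seen. The slope of Foxo1, singled out after its value was seen, was 0.29. That of Cdkn1b was 0.28, and a link between these genes was not tested in any comparison. From 1e4 to 2e4 Pim1 rose (0.43), and from 2e4 to 4e4 6 rose and Akt1 fell (-0.46). From 4e4 to 6e4 Pim2 (0.62), Stat5a (0.55) and Pim1 (0.37) rose. Calls over all genes tested were 5.26%, 13% and 1.48% in these steps.

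Genes with the most similar pattern were sought by Pearson's r of log2 CPM over the 34 libraries, which share groups and library preparation, among 6528 or 6529 genes of sufficient level. Cdkn1b was most like Irf4 (0.948) and Ablim1 (0.944), and Ccnd2 most like Chd7 (0.926) and Nrn1 (0.913). E2f2 ran with Cdca3 (0.895) and Brip1 (0.893), Ccne2 with Nusap1 (0.885) and Birc5 (0.884), and Ccne1 with Ccnb2 (0.873). For Cdkn2c the nearest genes were Nfkbie (0.880) and Stmn1 (0.877), for Cdk4 Psmd13 (0.841) and Mcm7 (0.836), for Ccnd3 Btla (0.826) and S100a10 (0.825), and for E2f1 Spc25 (0.821) and Calm3 (0.814). Cdk6 had the weakest match, with Bcl2l11 (0.720) and Fam3a (0.715).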

How the data were processed

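For each library the authors deposited a file of raw counts for 27179 numeric gene identifiers. STAR 2.7.2b, featureCounts 1.6.4 and mm10 are named without roles, per the submitters' processing notes, and the strand setting and the treatment of reads with several places are not given in the sources used here. A symbol and a GRCm38.p6 position were found for 25275 identifiers, and 48.3% of all counts fell on 2 of the 1904 identifiers without a symbol. Exon overlaps were read from the GENCODE M21 annotation.

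One model over the 34 libraries and 6 groups was fitted with edgeR 4.0.16 in R 4.3.3, using TMM normalization, filterByExpr by group, two-sided quasi-likelihood F-tests and Benjamini-Hochberg adjustment over the 11357 genes tested, with a threshold of 0.05. CPM uses the TMM library sizes, and log2 CPM a prior count of 1. The contrasts were each code against each other at 4e4, the change per doubling of the number within Tfh2, and the 3 steps between its neighbouring groups. Libraries held between 4481509 and 9934245 counts. Outside the 2 most abundant identifiers they held 2292557 to 5343465, which limits the precision of genes with few reads. The lowest of these were TfhA_4e4 replicates 1, 2 and 6, with 2666332, 2433862 and 2292557. No 2 libraries of a group agreed within sampling noise (lowest chi-square per degree of freedom 5.33).

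All members were named, from each list up to 4 called genes of mean log2 CPM 1 or more, largest change first, and for likeness the 2 genes with the highest r among genes of mean log2 CPM 3 or more, predicted genes passed over. The members and lists were chosen with earlier results of these data known. Alternatives were DESeq2 1.42.0, limma-voom (limma 3.58.1), other scaling, no filter, other libraries and a replicate block. A table joining all libraries was not used here. Results for some named genes are not reported here.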

Additional observations from a re-analysis of the deposited data

Results flagged for a closer look

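In 5 of 60 sets of a gene in a group, 1 library stood apart from the rest by Dixon's criterion, which chance meets in about 1 of 20 sets. Ccnd2 was 1691 CPM in TfhA_4e4 replicate 6, with the next library at 1462. Cdk4 was 107 CPM in Tfh2_1e4 replicate 3, with the next at 90.6. Cdk6 was 14.0 CPM in Tfh5_4e4 replicate 1, with the next at 9.89. Ccne1 was 9.08 CPM in Tfh2_6e4 replicate 3, the lowest, with the next at 12.6. E2f2 was 97.0 CPM in Tfh2_1e4 replicate 4, with the next at 85.4. The 5 sets were 5 different genes and 5 different libraries.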

How the results depend on the processing

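No value changed sign while called. Of 700 gene values under the settings listed beforehand, apart from leaving out a library, 676 kept their direction and call, and of 910 values with 1 library left out 864 did. The number of the 10 genes called in Tfh5_4e4 against Tfh2_4e4 was 1, and became 3 with DESeq2, 3 with both ranges of replicate numbers (1 to 3 and 4 to 6) as a factor, 0 without Tfh2_4e4 replicate 3 and Tfh2_2e4 replicate 6 together, and 0 to 3 with 1 library left out. From 4e4 to 6e4 it was 0, and 2 with the ranges as a factor and 0 to 2 with 1 library left out. From 2e4 to 4e4 it was 3, 0 with these groups fitted alone and 1 to 4 with 1 library left out. Leaving out 1 library gave 5 to 7 called for TfhA_4e4 against Tfh2_4e4, 8 for TfhA_4e4 against Tfh5_4e4, 9 to 10 for the slope and 1 from 1e4 to 2e4. The cause was not tested.

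With a replicate block, which the labels do not support as a pairing (after group means were removed, 15 of 80 pairs sharing a number had a correlation above 0.1, and 15 of 34 libraries were closest to one of their own number), 3 genes were called in Tfh5_4e4 against Tfh2_4e4 (Ccnd2, Ccne2 and E2f1) and 2 from 4e4 to 6e4 (Cdk4 and E2f1), and the other counts were 6, 8, 10, 1 and 3. Over all genes, the block raised the number of calls in every comparison. In TfhA_4e4 against Tfh2_4e4 calls went from 3729 to 4054, and in Tfh5_4e4 against Tfh2_4e4 from 353 to 582. From 4e4 to 6e4 they went from 168 to 381 with the block, 303 with the ranges, 275 with DESeq2, 90 without the 2 libraries and 74 with these groups alone. Without Tfh2_1e4 the slope called 3159 genes in place of 5331. Depth limits Cdkn2c and Ccnd3, with 3 to 86 and 12 to 108 reads per library.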
